A study of Mus musculus with 37 samples.

Results

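The genes described here make, acidify and fill the lysosome. They are 42 genes whose symbols were matched in the count tables of both mouse models, of 57180 genes in each table: 13 encode parts of the vacuolar proton pump (V-ATPase), 22 encode hydrolases and other proteins of the lysosome lumen and the sterol transfer pair, and the rest encode membrane glycoproteins, ion channels, CLN3 and the transcription factor TFEB. The members were chosen by function and not by a measured value, though earlier results of these data were known.

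Ribosome-bound RNA was sequenced from the ventral midbrain of 37 mice, 1 library per mouse. DAT;NuTRAP mice carry Cre at the dopamine transporter gene (DAT-IRES-Cre) and VGAT;NuTRAP mice carry Cre at the vesicular GABA transporter gene (Vgat-ires-Cre), and in both the Cre removes a stop cassette before a GFP-tagged ribosomal protein, L10a, at the Rosa26 locus. The GFP-bound fraction was collected with an antibody, so each library pools the Cre-positive neurons of one midbrain and RNA carried through the purification. The DAT;NuTRAP libraries came from 10 young mice (5 females and 5 males, 8 to 10.5 months) and 9 old mice (4 females and 5 males, 21 months). The VGAT;NuTRAP libraries came from 10 young mice (6 females and 4 males, 7 to 9 months) and 8 old mice (5 females and 3 males, 21 to 24 months). Each mouse was a separate animal. The comparison of the models asked where the lysosomal genes differ between dopamine and GABA neurons, and the comparison of ages asked whether they change in healthy aging. In such pooled RNA, fewer tagged cells and less RNA per cell cannot be told apart, and the Cre line, the cohort and the cell type cannot be told apart either.

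Lysosomes are kept acid by the V-ATPase, in which the V1 sector in the cytosol hydrolyses ATP and the V0 sector in the membrane carries protons. The low pH activates hydrolases that reach the lysosome through the secretory route and that break down proteins, glycans and lipids. Loss of single members of this group causes lysosomal storage disease, and several are linked to Parkinson's disease, in which midbrain dopamine neurons are lost.

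The labelled cell types were matched by their markers. Slc6a3, the dopamine transporter, lay at 2618 to 4246 CPM (counts scaled to library size with TMM factors) in DAT;NuTRAP libraries and at 247 to 1229 CPM in VGAT;NuTRAP libraries. Gad2, which makes GABA, lay at 55.5 to 269 CPM and at 1247 to 1676 CPM. Libraries held 13841253 to 38235015 counts. The labels place every library in a first or second batch without saying what the batch was, and both batches hold young and old mice of both models. DAT;NuTRAP libraries of the second batch detected 14323 to 18170 genes, against 19085 to 21051 in the first batch. VGAT;NuTRAP libraries detected 18485 to 21803 genes.

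The 42 genes took 1.068% to 1.285% of all counts in DAT;NuTRAP libraries and 1.041% to 1.165% in VGAT;NuTRAP libraries, and no member fell below 21 counts in any library. Levels of different genes were compared as mean CPM per kilobase of the canonical transcript, so they depend on that choice of transcript. Psap, the precursor of the saposins that help hydrolases reach sphingolipids, ranked first in both models, at 798 ± 83.4 CPM per kilobase (SD, n = 19) in DAT;NuTRAP and 700 ± 32.3 (SD, n = 18) in VGAT;NuTRAP. It was followed in DAT;NuTRAP by the pump subunits Atp6v0e2 (412 CPM per kilobase), Atp6v1b2 (388) and Atp6v0c (371), which lay within 1 SD of their neighbour in this order. In VGAT;NuTRAP Atp6v1b2 came second, at 410 CPM per kilobase. Of the 10 highest members, 8 were shared between the models. The median tested gene lay at 5.08 CPM per kilobase in DAT;NuTRAP and 5.35 in VGAT;NuTRAP, and 36 of the 42 members lay above it in each model. Tfeb, which switches on lysosomal genes, was the lowest member in DAT;NuTRAP (2.24 CPM per kilobase) and Cln3, a lysosomal membrane protein lost in a juvenile storage disease, the lowest in VGAT;NuTRAP (2.10).

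Between the cell types, most lysosomal members differed, and in both directions. After edgeR's quasi-likelihood test with batch and age as terms, and Benjamini-Hochberg adjustment over 15540 genes, 24 of the 42 members were higher in DAT;NuTRAP, 11 were higher in VGAT;NuTRAP and 7 did not pass an adjusted p of 0.05. Such calls were common among all genes: 32.3% of the genes tested were higher in DAT;NuTRAP and 31.7% higher in VGAT;NuTRAP, and among the 9447 genes at 10 CPM or more, where 40 of the members lie, the shares were 35.1% and 40.9%. The median log2 fold change of the members, DAT;NuTRAP over VGAT;NuTRAP, was 0.21, against 0.01 for all genes tested. Past a log2 fold change of 0.5 as well, 8 members were higher in DAT;NuTRAP and 3 in VGAT;NuTRAP, where 20.1% and 18.8% of all genes were. Every DAT;NuTRAP library lay above every VGAT;NuTRAP library for 3 members, Atp6v0b, Hexa and Smpd1, and below for 0 members. Of all genes, 3.75% lay wholly above and 5.28% wholly below.

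**Figure D1:**
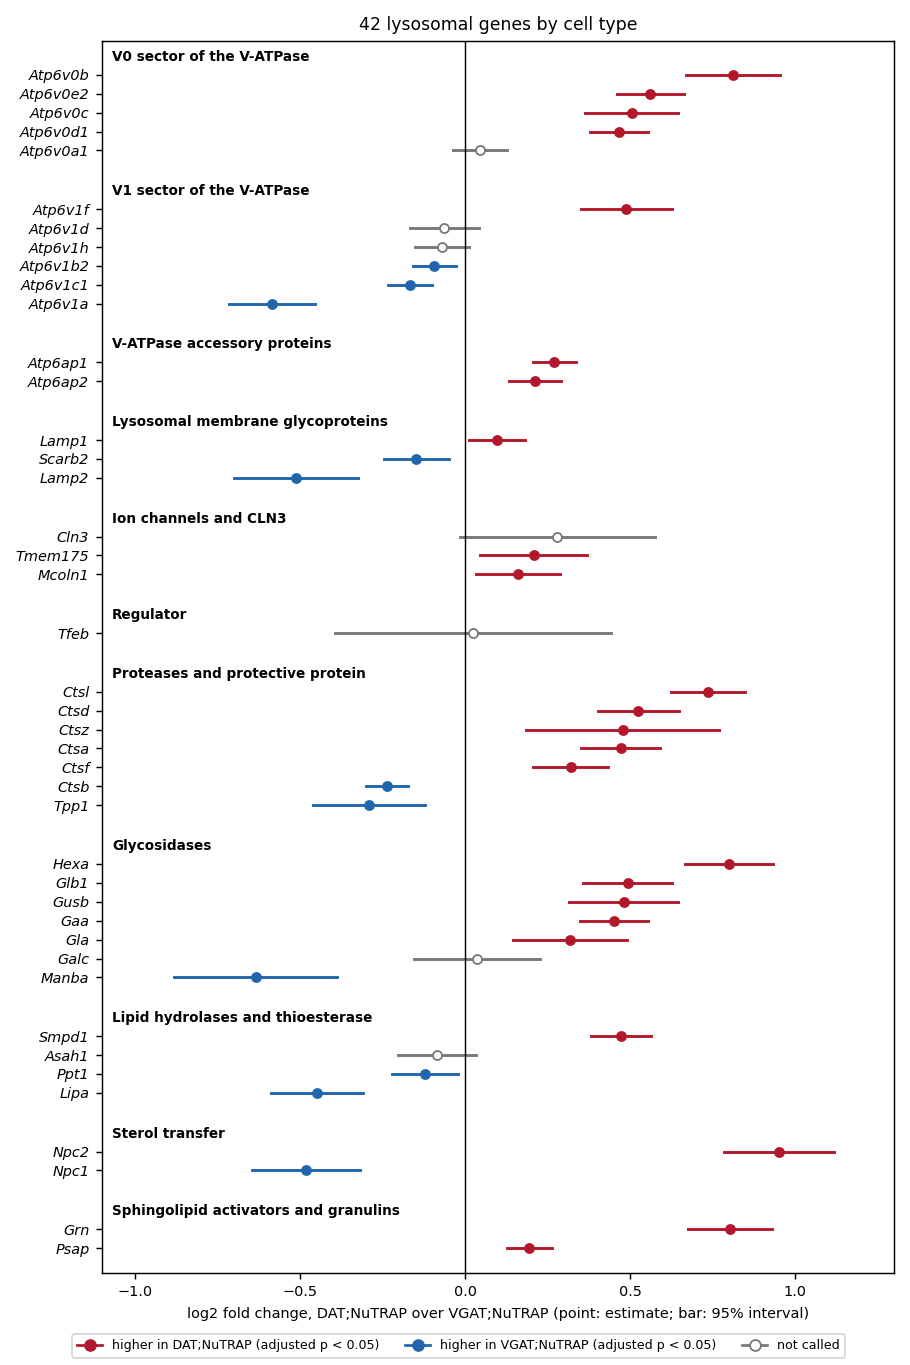
Log2 fold change of each of the 42 lysosomal genes between cell types, DAT;NuTRAP over VGAT;NuTRAP (19 against 18 libraries), with its 95% interval, grouped by role. Red points (24) were higher in DAT;NuTRAP, blue points (11) higher in VGAT;NuTRAP and open grey points (7) did not pass an adjusted p of 0.05. The V0 subunits lie at or to the right of 0 while most V1 subunits lie to the left, in values not corrected for transcript length or GC content.

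Upstream of 12 of the 36 members found in RefSeq's promoter table (GRCm38.p6), the 250 bases before the start held the 6 letters CACGTG, the E-box core read by TFEB and other factors, against 6.86% of the 27025 genes of the table. The longer TCACGTGA, which contains it, lay upstream of 6 members (16.7%) and 0.907% of all genes. Both words read the same on either strand. Gla holds the longer word a further time, 228 to 221 bases before the start, and only its place nearer the start is shown. The members with the longer word are shown because they stand on all sides of the comparison, with the word in capitals, each window running along the transcript strand:
Ctsa (chr2:164833735-164833772, + strand): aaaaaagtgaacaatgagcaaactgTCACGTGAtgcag
Ctsd (chr7:142387894-142387951, - strand): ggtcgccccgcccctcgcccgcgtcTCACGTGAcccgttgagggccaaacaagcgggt
Gla (chrX:134601168-134601225, - strand): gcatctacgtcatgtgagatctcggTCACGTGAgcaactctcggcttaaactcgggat
Mcoln1 (chr8:3500448-3500505, + strand): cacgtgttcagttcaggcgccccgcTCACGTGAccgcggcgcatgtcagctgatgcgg
Cln3 (chr7:126583326-126583383, - strand): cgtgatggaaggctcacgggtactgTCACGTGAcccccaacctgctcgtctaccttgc
Atp6v1a (chr16:44139359-44139416, - strand): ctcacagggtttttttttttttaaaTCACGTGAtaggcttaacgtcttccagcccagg
Ctsa, Ctsd, Gla and Mcoln1 were higher in DAT;NuTRAP, Atp6v1a was higher in VGAT;NuTRAP and Cln3 passed in neither direction. The 6 letters lay upstream of 10 of the 24 members higher in DAT;NuTRAP and 1 of the 7 higher in VGAT;NuTRAP that the table holds. Among all genes tested the shares were 9.67% of those higher in DAT;NuTRAP, 10.1% of those higher in VGAT;NuTRAP and 9.32% of the others. For the longer word the shares among these genes were 1.716%, 1.87% and 1.545%, above that of all genes of the table. A word in a promoter is a description of the sequence and not a bound site. The promoters of Atp6v1b2, Atp6v1c1, Atp6v1h, Ctsb, Asah1 and Npc1 were not found in the table used and were not analysed here. Of these, Atp6v1b2, Atp6v1c1, Ctsb and Npc1 were higher in VGAT;NuTRAP, and Atp6v1h and Asah1 passed in neither direction. The 7 are therefore only part of the 11 members higher in VGAT;NuTRAP, while the 24 are all of those higher in DAT;NuTRAP.

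The proton pump members were counted by sector, and the difference between sectors was not tested. Of the 5 members of V0, the membrane sector, 4 were higher in DAT;NuTRAP, with a median log2 fold change of 0.50, and of the 6 members of V1, the ATP-hydrolysing sector, 3 were higher in VGAT;NuTRAP and 1 in DAT;NuTRAP, with a median of -0.08. The sign of the V1 median was not kept with the trends of transcript length and GC content removed, where 3 members of V1 were higher in DAT;NuTRAP and 2 in VGAT;NuTRAP (median 0.12) and the median of V0, with 4 members higher in DAT;NuTRAP, was 0.18. Atp6v0b, a proteolipid of the proton-carrying ring (chr4:117741522-117744567, - strand, GRCm39), had a lowest, median and highest value of 224, 310 and 410 CPM in DAT;NuTRAP and 160, 172 and 220 CPM in VGAT;NuTRAP. The groups did not overlap, and the log2 fold change was 0.81 ± 0.07 (SE, adjusted p = 2.77e-13).

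Atp6v0e2, a small subunit of V0, ran from 599 through a median of 691 to 834 CPM in DAT;NuTRAP and from 423 through 476 to 630 CPM in VGAT;NuTRAP. A single VGAT;NuTRAP library, an old male of the first batch, reached into the DAT;NuTRAP range, and the log2 fold change was 0.56 ± 0.05 (adjusted p = 6.84e-13). Atp6v0c, the other proteolipid of the ring, lay at 367, 550 and 672 CPM against 184, 384 and 442 CPM and was higher by 0.50 ± 0.07, a call that was lost in the first-batch libraries alone (0.35 ± 0.16, adjusted p = 0.0977). Its count is uncertain, because the tables also list pseudogene copies of it. Atp6v0d1, which joins the ring to the central stalk, was higher by 0.47 ± 0.04. Atp6v0a1, the large subunit that lines the proton path, gave 0.04 ± 0.04 (95% interval -0.04 to 0.13, adjusted p = 0.348).

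In V1, Atp6v1a, the catalytic subunit (chr16:43887852-43960076, - strand, GRCm39), was higher in VGAT;NuTRAP by the largest amount among the pump members. Its lowest, median and highest values were 350, 479 and 835 CPM in DAT;NuTRAP and 694, 770 and 929 CPM in VGAT;NuTRAP, and its log2 fold change was -0.59 ± 0.06 (adjusted p = 1.75e-10). The DAT;NuTRAP values fell into the batches without overlap, at 651 to 835 CPM in the first and 350 to 482 CPM in the second, while the VGAT;NuTRAP values lay at 818 to 929 CPM and 694 to 796 CPM.

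The remaining V1 members had smaller fold changes. Atp6v1b2, the B subunit used in brain, gave -0.09 ± 0.03 (adjusted p = 0.0108) and Atp6v1c1, which links V1 to V0, -0.17 ± 0.03 (adjusted p = 2.22e-05), with 303, 357 and 405 CPM (lowest, median, highest) against 353, 384 and 454 CPM. Atp6v1f, a short stalk subunit, was higher in DAT;NuTRAP, at 130, 170 and 266 CPM (lowest, median, highest) against 112, 129 and 166 CPM, a log2 fold change of 0.49 ± 0.07 (adjusted p = 4.42e-08). In the first batch alone it did not pass (0.07 ± 0.07, adjusted p = 0.380), and in the second it gave 0.71 ± 0.06. Atp6v1d, part of the central stalk (-0.06, 95% interval -0.17 to 0.04) and Atp6v1h, a regulatory subunit (-0.07, 95% interval -0.15 to 0.01) did not pass. Both accessory proteins were higher in DAT;NuTRAP: Atp6ap1 by 0.27 ± 0.03 and Atp6ap2, the (pro)renin receptor, by 0.21 ± 0.04.

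The abundant glycoproteins of the lysosomal membrane split. Lamp2, which also serves chaperone-mediated autophagy, was higher in VGAT;NuTRAP. It lay at 26.6, 47.0 and 92.4 CPM (lowest, median, highest) in DAT;NuTRAP and at 50.5, 68.6 and 80.2 CPM in VGAT;NuTRAP, a log2 fold change of -0.51 ± 0.09 (adjusted p = 7.73e-06). As with Atp6v1a, the DAT;NuTRAP libraries divided by batch, 68.8 to 92.4 CPM in the first and 26.6 to 47.9 CPM in the second, and the first-batch libraries overlapped those of VGAT;NuTRAP. With the summed astrocyte and microglia marker level as a covariate its call was lost (-0.25 ± 0.11, adjusted p = 0.0645). Scarb2, which carries glucocerebrosidase to the lysosome, lay at 148, 191 and 248 CPM against 196, 209 and 231 CPM and gave -0.15 ± 0.05 (adjusted p = 0.00744). Lamp1 lay at 190, 225 and 295 CPM against 194, 210 and 256 CPM and gave 0.10 ± 0.04 (adjusted p = 0.0416). The ranges overlapped for both, and the call of Lamp1 was lost in 18 of the fits that left out 1 library, with an adjusted p up to 0.0821.

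Of the channels, Mcoln1, a calcium channel, lay at 48.0 to 88.3 CPM in DAT;NuTRAP and 50.4 to 67.4 CPM in VGAT;NuTRAP and gave 0.16 ± 0.06 (adjusted p = 0.0254). Tmem175, a potassium and proton channel, had medians of 25.3 and 22.3 CPM, with overlapping ranges, and gave 0.21 ± 0.08 (adjusted p = 0.0218). Each lost its call in 1 of the fits that left out a library (adjusted p = 0.0512 and 0.0529). Cln3, at 1.67 to 11.1 CPM and 4.08 to 6.97 CPM, gave 0.28 ± 0.15 (95% interval -0.02 to 0.57). Tfeb lay at 1.16 to 12.7 CPM in DAT;NuTRAP and 1.56 to 7.36 CPM in VGAT;NuTRAP. Its log2 fold change of 0.02 had a 95% interval from -0.39 to 0.44, so a difference within those bounds was not excluded.

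Of the 7 proteases, counting the protective protein Ctsa, 5 were higher in DAT;NuTRAP and 2 in VGAT;NuTRAP. Ctsl, cathepsin L, lay at 130, 194 and 223 CPM (lowest, median, highest) in DAT;NuTRAP and at 97.6, 111 and 140 CPM in VGAT;NuTRAP. A single DAT;NuTRAP library fell within the VGAT;NuTRAP range, and the log2 fold change was 0.74 ± 0.06 (adjusted p = 3.99e-15). Ctsd, the aspartic protease cathepsin D, lay at 186, 262 and 322 CPM against 154, 178 and 225 CPM and was higher by 0.52 ± 0.06. Ctsa, which shields lysosomal galactosidase and neuraminidase, was higher by 0.47 ± 0.06, and Ctsf, a cysteine protease, by 0.32 ± 0.06. Ctsz, a carboxypeptidase found mainly in microglia in brain, was higher by 0.48 ± 0.14 (adjusted p = 0.00401), at 6.26 to 24.5 CPM against 4.82 to 13.1 CPM. Its call was lost with the summed astrocyte and microglia marker level as a covariate (0.17 ± 0.19, adjusted p = 0.487) and in the first batch alone (0.03 ± 0.20, adjusted p = 0.908). In that summed level, microglia markers had means of 55.5 CPM in DAT;NuTRAP and 45.0 CPM in VGAT;NuTRAP, and astrocyte markers 1511 and 1063 CPM. The part of microglia RNA in the value of Ctsz was not tested. Ctsa, Ctsd and Ctsf also did not pass in the first batch alone (0.14 ± 0.06, 0.16 ± 0.08 and 0.05 ± 0.08).

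Ctsb, cathepsin B, went the other way. It lay at 569, 706 and 805 CPM in DAT;NuTRAP and at 742, 817 and 987 CPM in VGAT;NuTRAP, and the log2 fold change was -0.24 ± 0.03 (adjusted p = 1.41e-08). Tpp1, the tripeptidyl peptidase lost in a late-infantile storage disease, gave -0.29 ± 0.08 (adjusted p = 0.00267), but did not pass in the first batch alone (-0.05 ± 0.07) or with the astrocyte and microglia covariate (-0.22 ± 0.12).

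Of the 7 glycosidases, 5 were higher in DAT;NuTRAP. Hexa, the alpha subunit of the hexosaminidase that degrades GM2 ganglioside (chr9:59446818-59474021, + strand, GRCm39), lay at 55.3, 74.5 and 105 CPM (lowest, median, highest) in DAT;NuTRAP and at 37.5, 42.8 and 49.4 CPM in VGAT;NuTRAP. The groups did not overlap, and the log2 fold change was 0.80 ± 0.07 (adjusted p = 5.38e-14). Gaa, which degrades glycogen and was the most abundant glycosidase per kilobase in both models, was higher by 0.45 ± 0.05. Glb1, the beta-galactosidase, lay at 35.0, 42.9 and 63.0 CPM against 25.5, 30.5 and 38.8 CPM and was higher by 0.49 ± 0.07. Gusb, the beta-glucuronidase, was higher by 0.48 ± 0.08, and Gla, the alpha-galactosidase lost in Fabry disease, by 0.32 ± 0.09. Gla did not pass in the first batch alone (0.01 ± 0.07) or with the astrocyte and microglia covariate (0.24 ± 0.11). Galc, which degrades myelin galactolipids, gave 0.04 ± 0.09 (95% interval -0.15 to 0.23).

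Manba, the beta-mannosidase, was the member furthest toward VGAT;NuTRAP. It lay at 4.80, 14.3 and 18.8 CPM in DAT;NuTRAP and at 16.4, 19.9 and 25.4 CPM in VGAT;NuTRAP, and the log2 fold change was -0.64 ± 0.12 (adjusted p = 1.91e-05). The ranges overlapped, with 3 DAT;NuTRAP libraries inside that of VGAT;NuTRAP.

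Npc2 and Npc1, which hand cholesterol from one to the other, from the lumen to the membrane, were called in opposite directions. Npc2 (chr12:84801334-84820617, - strand, GRCm39) was the member furthest toward DAT;NuTRAP, at 60.2, 89.8 and 133 CPM (lowest, median, highest) against 36.2, 46.7 and 61.1 CPM, a log2 fold change of 0.95 ± 0.08 (adjusted p = 2.16e-13). Npc1 was higher in VGAT;NuTRAP, at 15.8, 26.8 and 33.3 CPM against 30.3, 35.1 and 45.2 CPM, a log2 fold change of -0.48 ± 0.08 (adjusted p = 2.00e-06). In the first batch alone Npc1 did not pass (-0.14 ± 0.08, adjusted p = 0.164), and in the second it gave -0.68 ± 0.10. A single library of each model lay in the other's range for Npc2, and 7 of each did for Npc1.

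Smpd1, the acid sphingomyelinase, lay at 140, 173 and 209 CPM in DAT;NuTRAP and at 111, 127 and 137 CPM in VGAT;NuTRAP. The groups did not overlap, and the log2 fold change was 0.47 ± 0.04 (adjusted p = 2.93e-12). Lipa, the acid lipase that frees cholesterol from its esters, was higher in VGAT;NuTRAP, at 20.3, 35.2 and 50.0 CPM against 40.5, 46.5 and 58.6 CPM, a log2 fold change of -0.45 ± 0.07 (adjusted p = 3.56e-07). Ppt1, a thioesterase that removes palmitate from proteins, lay at 70.9, 118 and 144 CPM against 109, 131 and 147 CPM and gave -0.12 ± 0.05 (adjusted p = 0.0290), and Asah1, the acid ceramidase, -0.08 ± 0.06 (95% interval -0.20 to 0.03).

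Grn, the progranulin precursor that is cleaved to granulins in the lysosome, lay at 47.6, 56.7 and 85.7 CPM in DAT;NuTRAP and at 29.6, 34.5 and 49.3 CPM in VGAT;NuTRAP. Its log2 fold change was 0.80 ± 0.06 (adjusted p = 1.07e-14), and 1 VGAT;NuTRAP library reached the lower edge of the DAT;NuTRAP range. Psap was higher by 0.19 ± 0.03 (adjusted p = 3.76e-06), a call lost in the first batch alone (0.02 ± 0.05, adjusted p = 0.817) and with the length and GC trends removed (0.05 ± 0.03, adjusted p = 0.103).

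**Figure D2:**
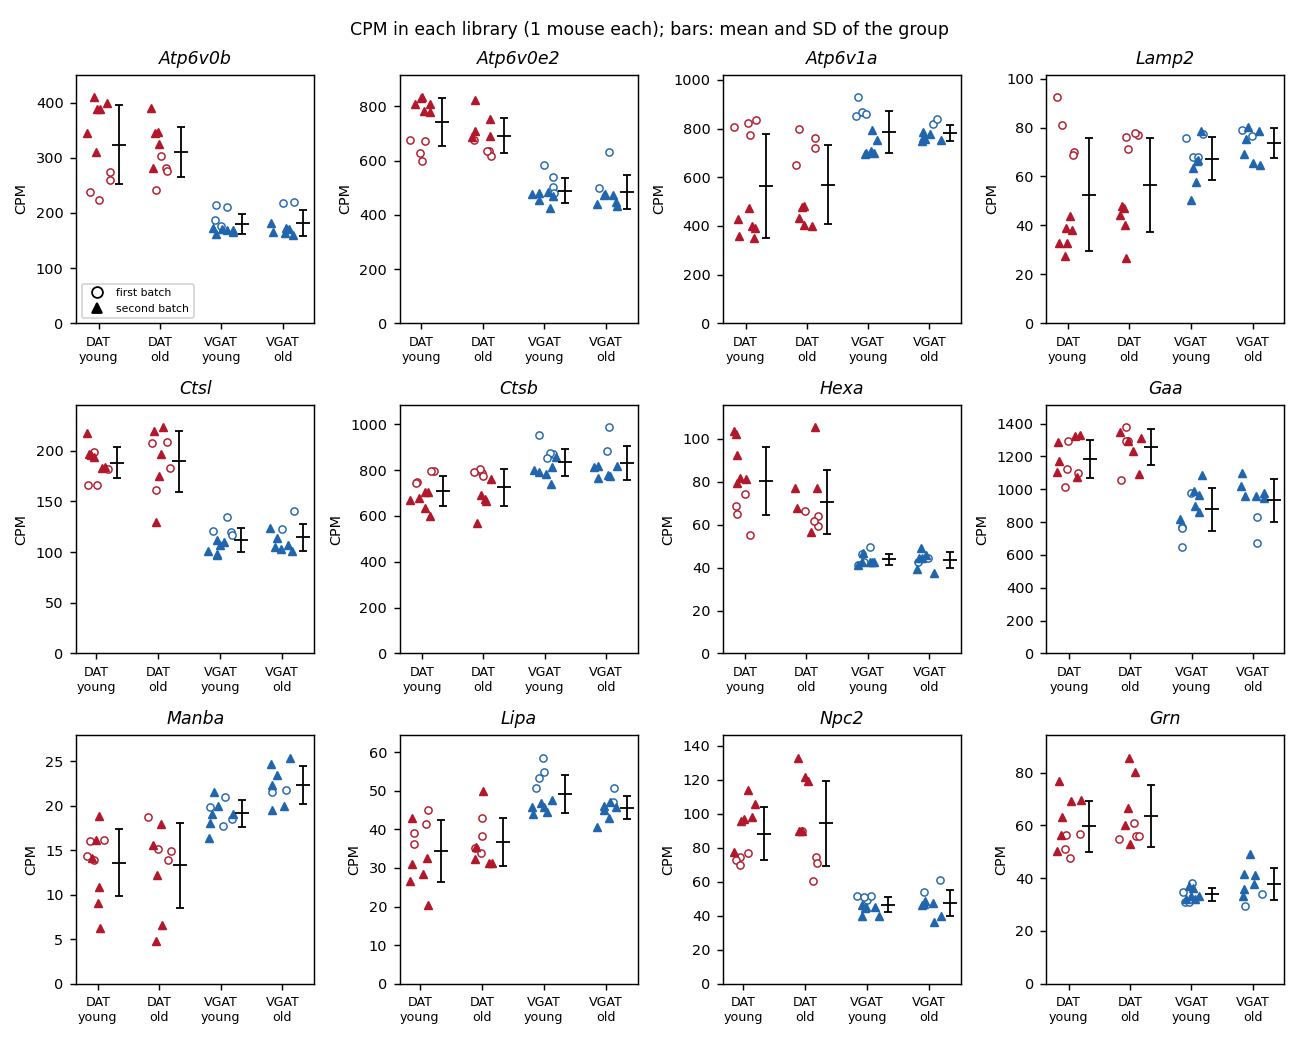
CPM of 12 lysosomal genes in each library, by model and age (open circles, first batch, filled triangles, second batch), with the mean and SD of each group. Atp6v0b and Hexa show DAT;NuTRAP libraries wholly above VGAT;NuTRAP libraries, Atp6v1a and Lamp2 show DAT;NuTRAP libraries divided by batch, and young and old libraries of 1 model overlap in every panel.

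The size of the difference by cell type was not the same in the batches. In the 14 first-batch libraries alone, 14 members were higher in DAT;NuTRAP and 6 in VGAT;NuTRAP, with a median log2 fold change of 0.08, where 23.7% and 24.3% of all genes were called. In the 23 second-batch libraries alone the counts were 24 and 12 with a median of 0.30, where 29.9% and 30.8% of all genes were called. A term for cell type by batch, added after the data were seen, passed for 26 members (edgeR's quasi-likelihood test, adjusted p below 0.05): 18 had a larger value of DAT;NuTRAP over VGAT;NuTRAP in the second batch and 8 a smaller one, where 14.5% and 16.9% of all genes did. Of the 35 members called over both batches, 31 had the same sign in both and 18 were called the same way in both, and the shares of all genes that did so were not counted. The 17 that did not pass in the first batch alone were Atp6v0c, Atp6v1b2, Atp6v1f, Lamp1, Lamp2, Scarb2, Mcoln1, Tmem175, Ctsa, Ctsd, Ctsf, Ctsz, Tpp1, Gla, Ppt1, Npc1 and Psap, and Ppt1 did not pass in the second either (-0.13 ± 0.07, adjusted p = 0.0825).

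The members that changed most between batches were Lamp2, with a log2 fold change of 0.04 ± 0.07 in the first batch and -0.84 ± 0.09 in the second, Npc2 (0.45 ± 0.08 and 1.23 ± 0.07), Ctsz (0.03 ± 0.20 and 0.75 ± 0.17), Atp6v0b (0.33 ± 0.07 and 1.07 ± 0.05) and Atp6v1a (-0.15 ± 0.05 and -0.84 ± 0.04). Of the 35, Mcoln1, Lamp1, Scarb2 and Lamp2 had opposite signs in the batches. For other members the batches lay closer. Grn gave 0.72 ± 0.08 and 0.85 ± 0.08, Smpd1 0.35 ± 0.07 and 0.51 ± 0.05, Gusb 0.32 ± 0.10 and 0.52 ± 0.11, Lipa -0.42 ± 0.07 and -0.47 ± 0.10, and Ctsb -0.23 ± 0.05 and -0.26 ± 0.04, and for none of these 5 did the cell type by batch term pass (adjusted p = 0.220 to 0.928). For Lipa the interval of the difference between batches ran from -0.31 to 0.26, and for Ctsb from -0.16 to 0.09.

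**Figure D3:**
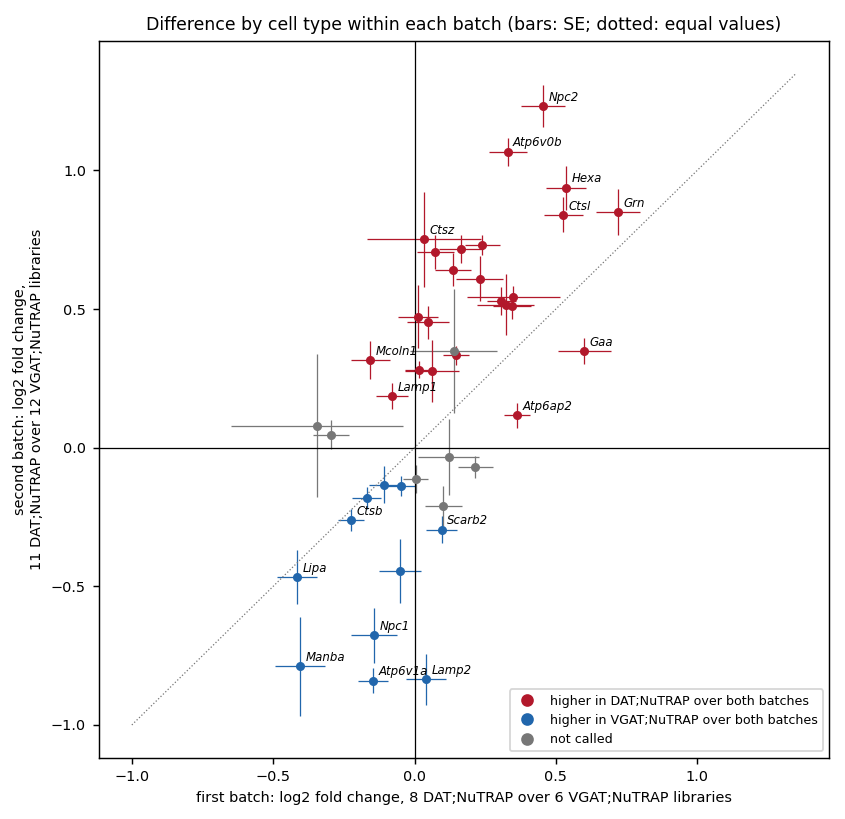
Log2 fold change by cell type of each of the 42 genes in the first batch (horizontal axis, 8 against 6 libraries) and in the second batch (vertical axis, 11 against 12 libraries), with SE bars and a dotted line of equal values. Npc2 and Atp6v0b lie above the line, Lamp2 and Atp6v1a below it, and Lipa, Ctsb and Grn close to it.

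Transcript length moved with this difference across all genes, so its values stand beside the members'. With the genes tested divided into 5 groups of near-equal size by canonical transcript length, the median log2 fold change ran from 0.33 in the shortest group through 0.15, 0.01 and -0.13 to -0.33 in the longest. In the first batch the medians ran from 0.05 to -0.07 and in the second from 0.48 to -0.48. The members higher in DAT;NuTRAP had a median transcript of 2386 bases and a GC content of 54.7%, and those higher in VGAT;NuTRAP 4588 bases and 46.3%.

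With the length and GC trends removed from each library, an alternative chosen after the data were seen, 22 members were higher in DAT;NuTRAP and 9 in VGAT;NuTRAP, where 32.5% and 27.8% of all genes were, and the median of the members was 0.17. In this fit 29 of the 35 called members kept their call and direction, and Lamp1, Scarb2, Mcoln1, Ctsf and Psap no longer passed. Npc2 gave 0.96 ± 0.09, Hexa 0.55 ± 0.06, Atp6v0b 0.46 ± 0.05 and Atp6v1a -0.40 ± 0.05. Ctsl rose from 0.74 ± 0.06 to 1.06 ± 0.08. The length of each gene was that of its canonical transcript, 3992 bases for Npc2 and 5908 bases for Ctsl. The corrected values therefore depend on that choice of transcript, and other transcripts were not tested. Atp6v1c1, with the longest transcript of the pump members, changed direction, from -0.17 ± 0.03 to 0.17 ± 0.05 (adjusted p = 0.00217). Atp6v0c, Atp6v0d1 and Atp6v1f, which have short transcripts, gave 0.18 ± 0.05, 0.18 ± 0.04 and 0.16 ± 0.05 and kept their calls. Atp6v1h, not called before, was higher in DAT;NuTRAP (0.17 ± 0.04, adjusted p = 0.000126), and Atp6v1b2 gave -0.16 ± 0.03.

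**Figure D4:**
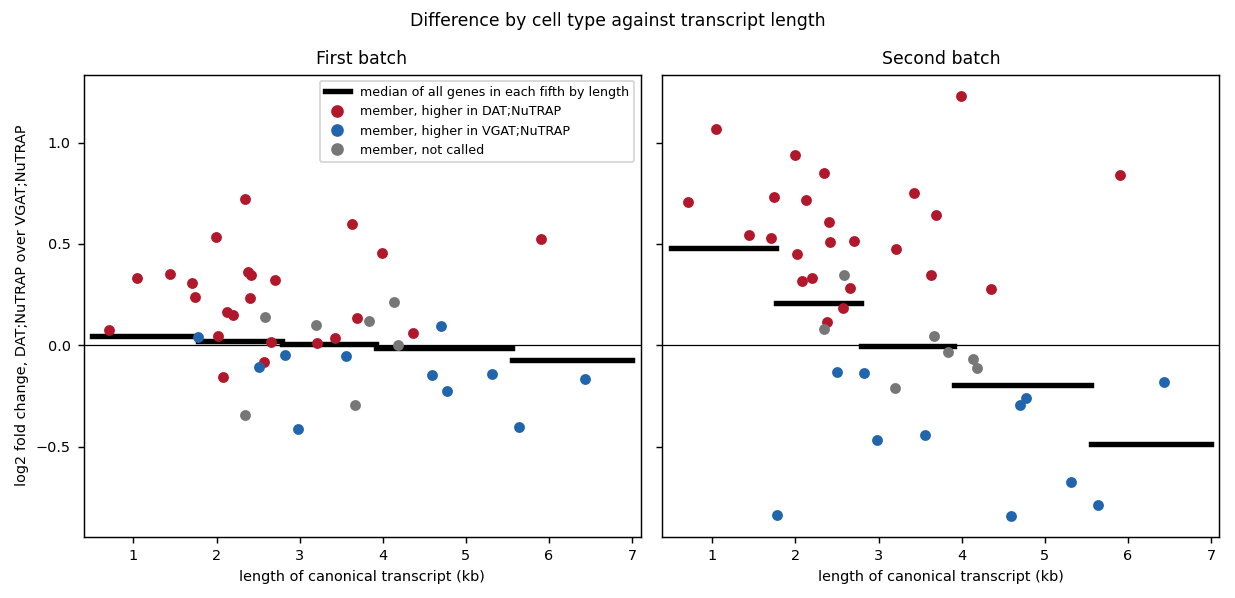
Log2 fold change by cell type against transcript length in kilobases, in the first batch (left) and the second batch (right), for the 42 members (points, coloured by their call over both batches) and as the median of all genes in each of 5 length groups (black bars). The bars are nearly flat in the first batch, from 0.05 to -0.07, and descend from 0.48 to -0.48 in the second.

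Markers of other cells also differed between the models. Of 12 astrocyte markers, 11 were higher in DAT;NuTRAP and 1, Aldoc, was lower, with means of 469 CPM there and 664 CPM in VGAT;NuTRAP. The summed level of all 12 was 921 to 2374 CPM (mean 1511) in DAT;NuTRAP and 900 to 1432 CPM (mean 1063) in VGAT;NuTRAP. Aldoc thus held much of the sum, most of all in VGAT;NuTRAP. Of 10 oligodendrocyte markers, 9 were higher in DAT;NuTRAP and 1 was lower, with sums of 522 to 2392 CPM and 269 to 1010 CPM. All 7 endothelial markers were higher, with sums of 47.6 to 252 CPM and 28.0 to 60.3 CPM. Of 14 microglia markers tested, 1, Laptm5, was higher, and the sums were 18.6 to 142 CPM and 7.97 to 146 CPM. No marker of these lists was at 0 in every library of a model. In the DAT;NuTRAP libraries the oligodendrocyte sums were 522 to 784 CPM in the first batch and 1145 to 2392 CPM in the second. With the summed astrocyte and microglia level as a covariate, 25 of the 35 called members kept their call and direction, and 20 members were higher in DAT;NuTRAP and 6 in VGAT;NuTRAP, where 24.2% and 23.2% of all genes were. The 10 that lost their call were Atp6v1b2, Lamp1, Lamp2, Scarb2, Mcoln1, Tmem175, Ctsz, Tpp1, Gla and Ppt1. The covariate was mostly an astrocyte level in which Aldoc weighed heavily, as microglia markers summed to means of only 55.5 CPM in DAT;NuTRAP and 45.0 CPM in VGAT;NuTRAP. A call kept or lost with it therefore does not tell the part of glial RNA in a member. The part of oligodendrocyte and endothelial RNA in the result was not tested.

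A set of 17 members kept call and direction in the first batch, the second batch, young mice, old mice, with length and GC trends removed and with the astrocyte and microglia covariate. The 13 higher in DAT;NuTRAP were Atp6v0b, Atp6v0d1, Atp6v0e2, Atp6ap1, Atp6ap2, Ctsl, Hexa, Glb1, Gaa, Gusb, Smpd1, Npc2 and Grn, and the 4 higher in VGAT;NuTRAP were Atp6v1a, Ctsb, Manba and Lipa. These settings reuse libraries of the main fit. The share of all genes that kept a call in every one of them was not counted, so the set is a list of members only. Atp6v0b shares 55.1% of its annotated exon bases with a gene on the opposite strand (Gm12841) and Grn 32.8% with Fam171a2, Ctsl shares 26.1% with Gm47123, and whether reads were counted by strand is not given in the sources used here. In all, 14 members share over 10% of their exon bases with another gene, among them Lamp1 (49.2% with Grtp1, opposite strand). Overlaps on the same strand, which a count by strand does not separate, included Ctsd (29.2%, Gm49369), Ctsl (5.92%, Gm49230) and Glb1 (4.21%, Tmppe).

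The rest of the lysosomal machinery was read from lists of genes outside the 42. Of all genes tested, 32.3% were higher in DAT;NuTRAP and 31.7% higher in VGAT;NuTRAP. Of 11 other V-ATPase subunits and assembly factors with enough counts, of 16 listed, 4 were higher in DAT;NuTRAP and 5 in VGAT;NuTRAP. They included a pair of V1 stalk subunits that can replace each other, Atp6v1g1, found in most tissues, at 0.93 ± 0.05, and the neuronal Atp6v1g2 at -0.47 ± 0.04. Dmxl1 and Wdr7, which help to assemble the pump, were higher in VGAT;NuTRAP (-1.40 ± 0.15 and -0.79 ± 0.10). With the length and GC trends removed the values of Dmxl1 and Wdr7 were -0.65 ± 0.10 and -0.45 ± 0.06, and those of Atp6v1g1 and Atp6v1g2 0.68 ± 0.05 and -0.77 ± 0.03.

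The counts of the other lists also stand beside these shares of all genes tested, 32.3% and 31.7%. Of 31 other hydrolases and activators, 19 were higher in DAT;NuTRAP and 6 in VGAT;NuTRAP, and their median log2 fold change was 0.32. Examples were Scpep1, a serine carboxypeptidase, at 0.68 ± 0.06, and, in the other direction, Hgsnat, which acetylates heparan sulfate during its breakdown, at -1.08 ± 0.06. Other membrane proteins divided 5 and 7 of 21, with Tmem106b at -0.78 ± 0.06 and Ostm1, the partner of a lysosomal chloride transporter, at 0.38 ± 0.04. Genes that deliver hydrolases divided 3 and 5 of 11. Among these Sort1, the sorting receptor that binds progranulin and prosaposin, was higher in VGAT;NuTRAP (-0.63 ± 0.06), as was Igf2r, the large mannose 6-phosphate receptor (-0.50 ± 0.09). Of 20 genes of the TFEB family and of mTORC1 signaling on the lysosome, 7 were higher in DAT;NuTRAP and 10 in VGAT;NuTRAP, with Mitf at -1.44 ± 0.15 and Mtor at -0.63 ± 0.08. Igf2r no longer passed with the length and GC trends removed (-0.11 ± 0.07, adjusted p = 0.183), and the other genes named here did, with smaller values for Tmem106b (-0.31 ± 0.04), Mtor (-0.30 ± 0.06) and Sort1 (-0.35 ± 0.04).

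With age, no lysosomal member passed in either model. In DAT;NuTRAP, edgeR's quasi-likelihood test with batch as a term called 0 of the 42 members and 0.00672% of 14889 genes, and in VGAT;NuTRAP 0 of 42 and 0.0256% of 15607 genes. An unadjusted p below 0.05 was reached by 1 member in DAT;NuTRAP (3 by DESeq2 and 3 by limma-voom) and by 4 in VGAT;NuTRAP (4 and 4), and neither DESeq2 nor limma-voom called a member. The median log2 fold change of the members, old over young, was 0.02 in DAT;NuTRAP and 0.03 in VGAT;NuTRAP, against 0.00 for all genes in each. The 95% interval lay within 0.5 of 0 on the log2 scale for 39 of the 42 members in DAT;NuTRAP, the others being Tfeb, Ctsz and Cln3, and for 41 in VGAT;NuTRAP, the other being Ctsz. Larger changes than that were thus outside the interval for most members. How far smaller changes were also outside differed by member, with a median SE of 0.08 in DAT;NuTRAP and 0.05 in VGAT;NuTRAP.

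In DAT;NuTRAP the 13 pump members ranged from -0.13 (Atp6v0d1) to 0.07 (Atp6v0a1), with a median of -0.02, and in VGAT;NuTRAP from -0.03 (Atp6v1c1) to 0.06 (Atp6v0b), with a median of 0.03. Among the proteases Ctsa had the smallest p in DAT;NuTRAP. It lay at 71.0, 87.8 and 107 CPM (lowest, median, highest) in young and 85.8, 95.7 and 121 CPM in old libraries, groups that overlapped, and its estimate was 0.16 ± 0.07 on the log2 scale (edgeR adjusted p = 0.931). Ctsd differed by 0.08 ± 0.07 with age in the dopamine neurons and by 0.05 ± 0.06 in the GABA neurons. The glycosidases gave the lowest values in DAT;NuTRAP, Gla at -0.18 ± 0.12, Hexa at -0.16 ± 0.09 and Gusb at -0.14 ± 0.13, none of which passed.

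In VGAT;NuTRAP, Ctsz lay at 4.82, 7.62 and 11.3 CPM in young and 6.58, 9.88 and 13.1 CPM in old libraries, a log2 fold change of 0.38 ± 0.15 (adjusted p = 0.784). The summed level of 15 microglia markers had medians of 22.9 CPM in young and 31.2 CPM in old VGAT;NuTRAP libraries, and 37.4 CPM and 70.4 CPM in DAT;NuTRAP, and its part in these values was not tested. Manba lay at 16.4, 19.1 and 21.6 CPM in young and 19.5, 22.1 and 25.4 CPM in old VGAT;NuTRAP libraries, a log2 fold change of 0.22 ± 0.07 (adjusted p = 0.654), and the groups overlapped. Lamp2 gave 0.16 ± 0.07 and Lamp1 0.09 ± 0.04 (adjusted p = 0.826 and 0.832). For Tfeb the estimates were 0.08 ± 0.37 in dopamine neurons and -0.08 ± 0.19 in GABA neurons.

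**Figure D5:**
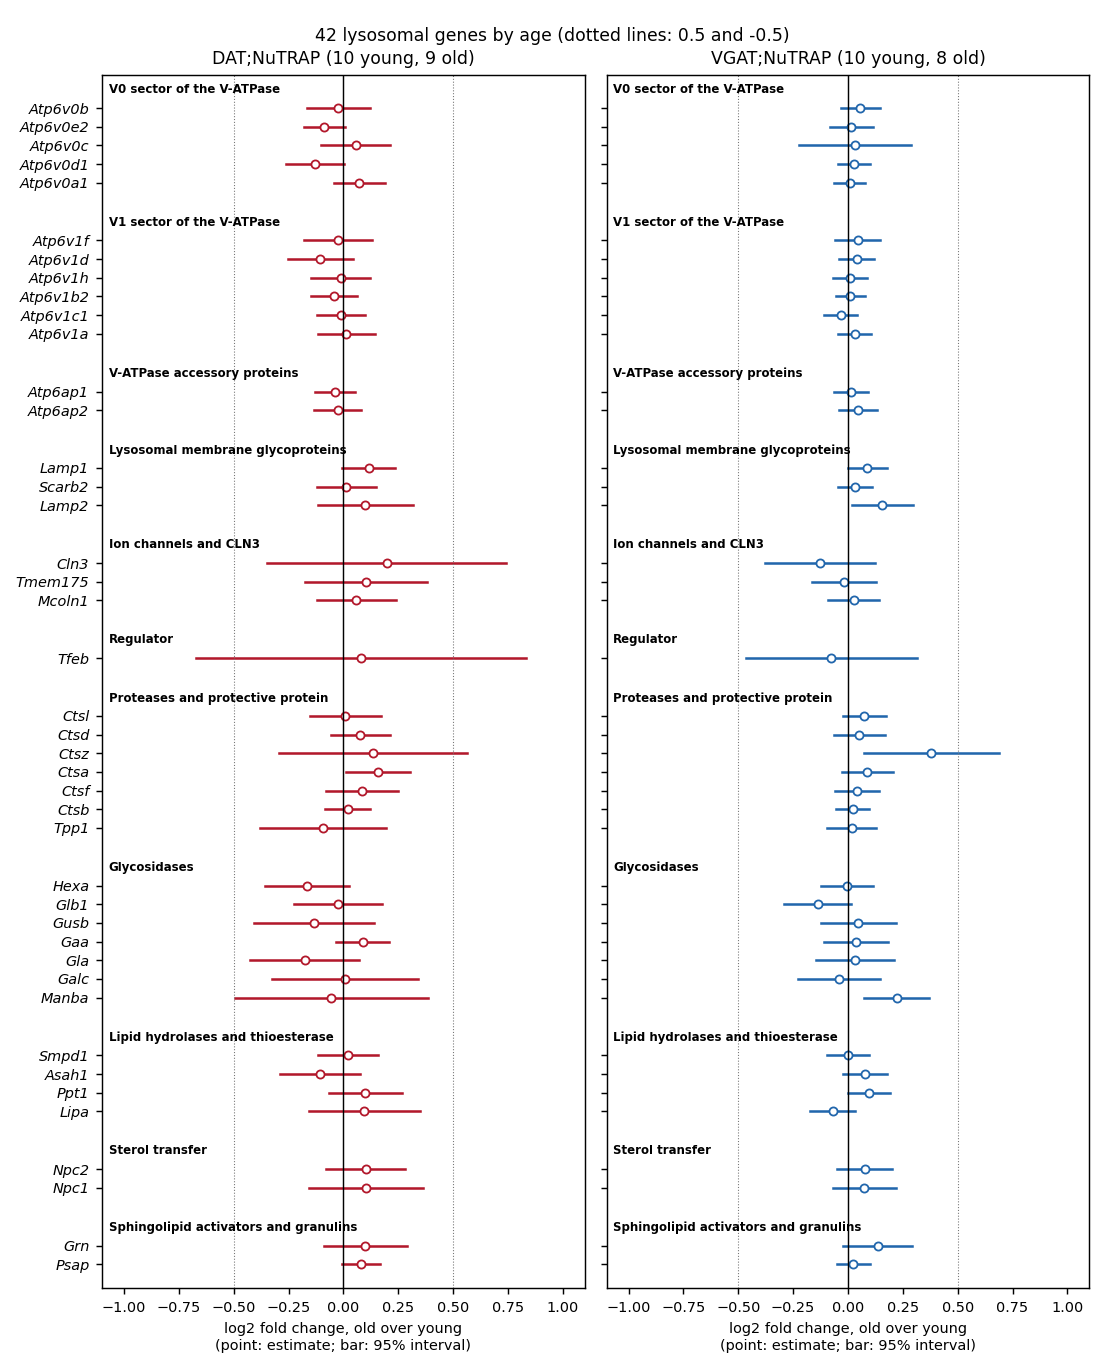
Log2 fold change of each of the 42 genes with age, old over young, with its 95% interval, in DAT;NuTRAP (left, 10 young and 9 old libraries) and VGAT;NuTRAP (right, 10 young and 8 old), in the order of the plot by cell type. No point passed an adjusted p of 0.05, and the widest bar in each model is that of Tfeb.

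The age effect did not differ detectably between the cell types. The interaction term, coded as the age effect in GABA neurons minus that in dopamine neurons, passed for 0 of the 42 members and 0% of 15540 genes with edgeR, where 0 members had an unadjusted p below 0.05 (1 by DESeq2 and 1 by limma-voom, neither called). The 42 estimates ran from -0.33 ± 0.30 (Cln3) to 0.27 ± 0.24 (Manba), and 36 intervals lay within 0.5 of 0. Of the 5 lists of other lysosomal genes, 0 of 92 genes passed by age in DAT;NuTRAP and 0 of 93 in VGAT;NuTRAP with edgeR, and 6 and 4 had an unadjusted p below 0.05 (7 and 4 by DESeq2, 9 and 5 by limma-voom, none called).

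Within each sex the members did not pass either. The share of all genes called by age was 0% in DAT;NuTRAP females (0 of 14839 genes, with 601 at an unadjusted p below 0.05 and 31 called by DESeq2), 0% in DAT;NuTRAP males (0 of 15789, 868 and 7), 0.032% in VGAT;NuTRAP females and 0.0315% in VGAT;NuTRAP males, and 0 of the 42 members were called in any of them by edgeR or DESeq2. An unadjusted p below 0.05 was reached by 2 members in DAT;NuTRAP females, 0 in DAT;NuTRAP males (2 by DESeq2), 2 in VGAT;NuTRAP females and 1 in VGAT;NuTRAP males. Ctsz in VGAT;NuTRAP females was the largest of these, at 0.59 ± 0.17 (adjusted p = 0.674), and Npc2 in DAT;NuTRAP females gave 0.31 ± 0.13 (adjusted p = 1.00). The difference of the age effect between sexes, males minus females, passed for 0 members and 0% of genes in DAT;NuTRAP (1 member and 561 genes at an unadjusted p below 0.05, with 5 genes and 0 members called by DESeq2) and for 0 members and 0% of genes in VGAT;NuTRAP (0 members and 798 genes, with 0 called by DESeq2). The member with the smallest p there was Grn in DAT;NuTRAP, at -0.40 ± 0.18 (edgeR adjusted p = 1.00).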

How the data were processed

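GFP-bound ribosomal RNA of 19 DAT;NuTRAP and 18 VGAT;NuTRAP mice was sequenced. The deposited tables hold raw counts per gene, which the authors obtained with featureCounts after alignment by STAR 2.7.10b to GRCm39 (mm39), as named in the submitters' processing notes and before their own filters and batch correction. The version and strand setting of featureCounts are not given in the sources used here. Columns without a sample numbered 0. Groups came from the labels. Across 70 pairs of libraries of one condition no duplicate was found (lowest chi-square per degree of freedom 5.22).

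The fits used edgeR 4.0.16 under R 4.3.3 (normalization by TMM, filterByExpr with a minimum count of 10, robust quasi-likelihood fit, Benjamini-Hochberg adjustment over all genes tested), with terms for batch and, between models, age. Values are log2 fold changes ± SE, called at an adjusted p below 0.05. Both tables hold unscaled counts and were fitted together for comparisons of the models. Alternatives used DESeq2 1.42.0, limma-voom (limma 3.58.1), other filters, factors, covariates and subsets. Smooth trends on transcript length and GC content (lowess, span 0.3, 0.5 CPM added) were removed as offsets. The fits were tested on simulated counts without batch effects or length trends, so that test does not cover these features of the data.

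All 42 members were named. Of other lists, up to 4 genes with the smallest p, and of markers the label genes and the 3 with the highest mean CPM in each list, could be named. Members and lists were chosen with earlier results of these data known. Transcripts and positions came from GENCODE vM39 (GRCm39), which held 56620 of the 57180 identifiers. Library totals limit the precision of low genes; no member had under 21 counts in a library. The input fraction was not used here.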

Additional observations from a re-analysis of the deposited data

Results flagged for a closer look

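In 9 of 168 sets of values (42 genes in 4 groups by model and age), 1 library lay far from the others by Dixon's test at its 95% critical value, 5.36% of the sets, where chance gives about 1 in 20. A young VGAT;NuTRAP male of the first batch (male 1) accounted for 3 of them: Atp6v0c at 184 CPM (nearest library 369 CPM), Tmem175 at 30.7 CPM (23.3 CPM) and Tfeb at 1.56 CPM (4.98 CPM). An old VGAT;NuTRAP male of the first batch (male 1) stood high for Atp6v0e2 at 630 CPM (498 CPM) and Atp6v1b2 at 1287 CPM (1163 CPM), and an old female of the same batch (female 1) for Atp6v0c at 442 CPM (387 CPM). In DAT;NuTRAP, all in the second batch, an old female (female 4) stood high for Tmem175 at 34.8 CPM (29.3 CPM), another old female (female 3) for Hexa at 105 CPM (77.2 CPM), and a young female (female 5) low for Ppt1 at 70.9 CPM (105 CPM).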

How the results depend on the processing

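With DESeq2, limma-voom and RLE factors the counts of members by cell type were 24 and 11, as in the report. They were 14 and 6 in the first batch alone. The count higher in VGAT;NuTRAP was 7 in young mice and 6 with the glial covariate. With each library left out in turn, 21 to 25 members were higher in DAT;NuTRAP and 11 to 12 in VGAT;NuTRAP. Lamp1 lost its call in 18 of these fits, and Mcoln1 and Tmem175 in 1 each. By age and by age and cell type, the counts stayed at 0 (0 to 0) with each library left out and in the other settings. The cell type by batch counts fell from 18 and 8 to 10 and 5 with length and GC trends removed. Apart from those stated in the report, shares of all genes called in these settings are not given here.

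Some single genes changed direction. In the first batch alone Mcoln1 gave -0.16, Lamp1 -0.080, Lamp2 0.041 and Scarb2 0.096. With the glial covariate Mcoln1 gave -0.0026 and Lamp1 -0.045. With length and GC trends removed Mcoln1 gave -0.071, Scarb2 0.026 and Atp6v1c1 0.17, with the length trend alone Atp6v1c1 gave 0.12, and with the GC trend alone Ppt1 gave 0.022. The cause was not tested.

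Each library came from a separate mouse, so same-numbered libraries of different groups were different animals by design. Of 49 same-numbered pairs of libraries, 12 had a correlation of their deviations over 0.1 (median 0.024). Of 37 libraries, 11 correlated best with their own number. The deviations were taken from group means without a batch term, so these correlations cannot tell replicate number from batch. With a replicate block the counts by cell type were 22 and 10, and by age 0 in each model. The batch label does not say what it marks. Tfeb, Cln3 and Ctsz gave the widest intervals by cell type.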
